A study of Mus musculus with 12 samples.

Results

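Apolipoprotein E and the other lipid transport genes of the nervous system were read from the deposited table of genotype comparisons by symbol. The 9 genes were APOE, APOD, CLU and APOC1 (apolipoproteins), ABCA1 and ABCG1 (lipid exporters), LRP1 and VLDLR (lipoprotein receptors) and LPL (a lipase). All 9 were among the 13957 genes listed at either site, with 9 of 13645 above the lesion and 8 of 12337 below it. APOD was not analysed below the lesion. Spinal cord segments about 2 mm long were collected for RNA-seq just above or just below a contusion of 50 kdyne at thoracic level 9, 14 days after injury, in male mice 4 months old that carry human ApoE4 by targeted replacement. The groups were ApoE4 synj1+/+ above, ApoE4 synj1+/- above, ApoE4 synj1+/+ below and ApoE4 synj1+/- below, with 3 libraries in each of the 4 groups (12 in all). There was no uninjured group and no group without ApoE4 among these samples. The labels do not name the mouse of a library. The animal numbers of the design (3 mice per genotype for RNA-seq, against 6 libraries) imply that the above and below segments came from the same mice. The sites are therefore not taken as independent samples.

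In the central nervous system lipids travel between cells on small lipoprotein particles. Astrocytes, and microglia after injury, load them with cholesterol and phospholipid through ABC transporters, apolipoproteins hold the particles together, and receptors of the LDL receptor family take them up. Liver X receptors, nuclear receptors that sense oxysterols, raise transcription of Abca1, Abcg1, Apoe and other genes of this route. After injury to the cord the same route carries the lipid of broken myelin out of phagocytes.

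The table holds 1 value per gene and group, with the 3 libraries already combined by the authors. It gives no value of a single library, so no standard deviation, interval or test could be computed, and a difference between 2 values below is a difference between 2 pooled values only. By its digits, each value of the 9 genes fitted 1 plus the FPKM of the gene (fragments counted per unit of transcript length and of library size) times its number of RefSeq transcripts, a form inferred from the values and given by no source used here. Levels are therefore given as FPKM after the 1 and the number of transcripts were taken out, and genotype differences as the log2 ratio of the deposited values, synj1+/- over synj1+/+. A gene was counted as past the fold at an absolute log2 ratio of 0.3 or more, which is 1.23-fold.

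SYNJ1, the targeted gene, ran against the labels in this table. Above the lesion its deposited value was 1905 under the label synj1+/+ and 2404 under the label synj1+/- (log2 ratio 0.34). Below the lesion the values were 1847 and 2593 (log2 ratio 0.49). The genotypes had been checked by PCR, per the methods, and whether the labels of the table or another cause stands behind this direction was not tested. Genotypes are therefore given as labelled throughout, and each direction below rests on those labels. The reads were aligned to the mouse genome, so the APOE value counts only what the mouse reference could take from the humanized locus, and the share of reads lost was not tested. The level of APOE is for that reason not set in order with the other genes, although its differences between groups use 1 measure.

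The annotation of GRCm38.p6 places Apoe at chr7:19696244-19701310 and Apoc1 at chr7:19689480-19692659, 3584 bases apart. Abca1 lies at chr4:53030789-53159988, Abcg1 at chr17:31057694-31117984, Apod at chr16:31296192-31314808, Clu at chr14:65968483-65981548, Lpl at chr8:68880555-68906932, Lrp1 at chr10:127538157-127621148 and Vldlr at chr19:27216480-27254231. All 9 are protein coding, and each value sums over the whole gene.

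The promoters of Abca1 and Apoe are shown because both genes are known liver X receptor targets, with genotype ratios that were alike above the lesion and of opposite sign below it. Both windows run from 250 bases before a RefSeq start site to 50 after it (GRCm38.p6), read 5′ to 3′ on the strand of the gene. These start sites are not the outer ends of the gene spans given above: that of Abca1 lies 93 bases inside its span and that of Apoe 2122 bases inside. Apoe had 3 windows, of which the one farthest upstream is printed. Capitals mark a match on either strand to GGTNA followed, after 5 bases, by a further GGTNA, a pair of half-sites spaced as in the direct repeats that liver X receptors bind with their retinoid X receptor partner. The half-site was chosen with the Abca1 promoter in view.
Abca1, chr4:53159846-53160145, minus strand: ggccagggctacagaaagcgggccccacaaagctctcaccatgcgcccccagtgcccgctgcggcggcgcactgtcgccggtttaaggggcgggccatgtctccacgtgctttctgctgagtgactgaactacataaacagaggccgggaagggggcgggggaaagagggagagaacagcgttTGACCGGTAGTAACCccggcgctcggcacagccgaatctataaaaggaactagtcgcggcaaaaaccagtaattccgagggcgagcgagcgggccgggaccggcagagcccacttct
Apoe, chr7:19699139-19699438, minus strand: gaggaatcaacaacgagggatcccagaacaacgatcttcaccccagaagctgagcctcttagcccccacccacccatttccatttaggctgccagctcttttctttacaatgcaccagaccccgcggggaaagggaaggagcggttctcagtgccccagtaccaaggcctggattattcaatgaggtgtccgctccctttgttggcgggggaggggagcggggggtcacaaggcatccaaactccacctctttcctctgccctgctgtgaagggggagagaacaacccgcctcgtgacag
The match in the Abca1 window lay on the strand opposite the gene, 67 to 53 bases before that start site, and overlapped neither of the 2 GC boxes (GGGCGG) nor the TATAAA of that window. The same pair, a pattern of 15 bases, occurred in 236 of 32851 promoters of this length, or 0.718%. GGGCGG and TATAAA, of 6 bases each, occurred in 35.7% and 13.6%, shares that cannot be set against that of a longer pattern. Because the half-site was chosen with the Abca1 promoter in view, the match there was fixed in advance and its rarity supports nothing. Of the 9 genes, 5 had a promoter in the table (Abca1, Apoe, Lrp1, Apod and Vldlr) with 8 windows between them, and 1 of the 8 held the repeat. The Apoe window that is printed held none of the 3 motifs, while 1 of the other Apoe windows (chr7:19698572-19698871) held TATAAA on both strands. Clu, Abcg1, Lpl and Apoc1 had no promoter entry and were not searched. A match of letters is a description and no measure of binding, and the lack of one says nothing of sites outside the window.

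The levels ranged over more than 2 orders of magnitude. CLU, clusterin, a secreted chaperone and apolipoprotein of astrocytes, was the highest of these genes in every group, APOE set aside, at 930 FPKM in synj1+/+ above, 802 in synj1+/- above, 941 in synj1+/+ below and 778 in synj1+/- below. It ranked 13th to 23rd among all genes with a transcript number, depending on the group. APOD, a lipocalin that carries arachidonic acid and is made by glia, followed above the lesion with 372 FPKM in synj1+/+ and 339 in synj1+/-. LRP1, a large endocytic receptor for ApoE particles, stood at 119, 108, 151 and 125 FPKM in the same order of groups. ABCG1, LPL and ABCA1 came next and their order changed with the group, and VLDLR, the receptor for ApoE and reelin, stayed between 8.35 and 9.28 FPKM. APOC1, a small apolipoprotein that inhibits lipoprotein lipase, was lowest in all groups at 1.71 to 3.07 FPKM. The median gene lay between 9.74 and 10.7 FPKM, so VLDLR and APOC1 lay below the middle of the distribution.

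**Figure D1:**
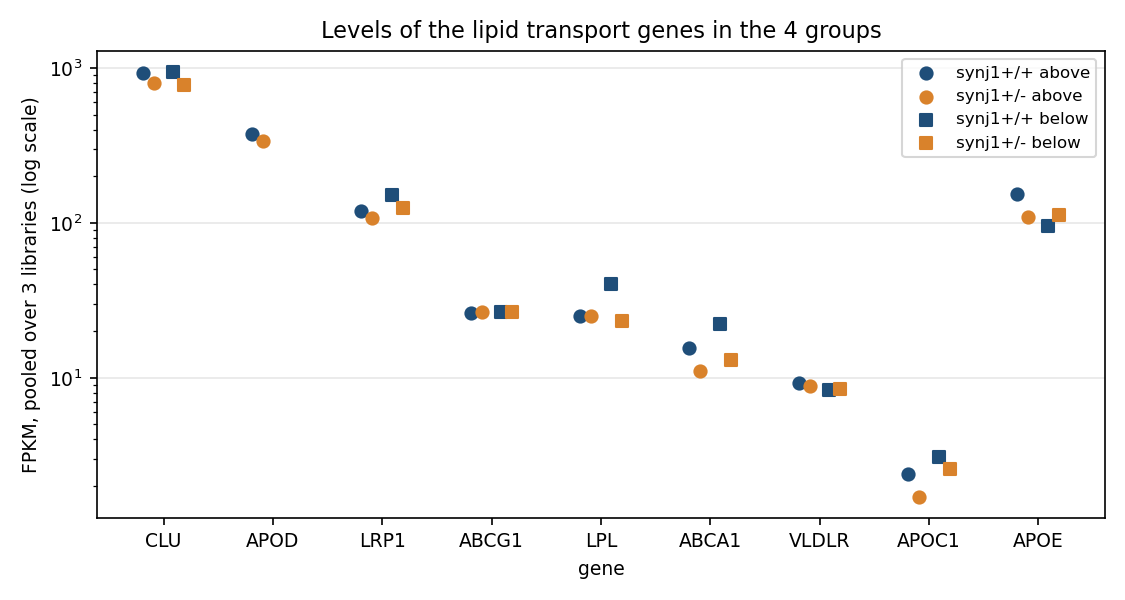
FPKM of each gene (log axis) in the 4 groups, with 1 pooled value per group and no error because no library is given singly; circles are above and squares below the lesion, blue is synj1+/+ and orange synj1+/-. ABCA1 was lower in synj1+/- at both sites, LPL stood highest in synj1+/+ below (40.3 FPKM), and APOE, drawn last because its level is not set in order with the rest, was lower in synj1+/- above the lesion and higher below it.

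Above the lesion 3 of the 9 genes were past the fold downward in the group labelled synj1+/- and 0 upward, where 8.53% of all genes were past it downward and 4.87% upward. The 3 were APOE, ABCA1 and APOC1. The median log2 ratio of the 9 was -0.14, against -0.004 over all genes. Of the 9 ratios 7 were below 0, as were 51.0% of all genes.

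APOE, the main lipid carrier made by astrocytes, was 153 FPKM in synj1+/+ and 110 in synj1+/- above the lesion. The log2 ratio of -0.48 is a level 28.6% lower, and 3.07% of all genes had a ratio at or below it. ABCA1, which moves cholesterol and phospholipid onto lipid-poor ApoE, was 15.5 and 11.0 FPKM, with the same log2 ratio of -0.48. APOC1 was 2.39 and 1.71 FPKM, a log2 ratio of -0.39 at a level where the added 1 matters: with a pseudocount of 10 the ratio was -0.14. CLU had a log2 ratio of -0.21, APOD of -0.14, LRP1 of -0.13 and VLDLR of -0.08. ABCG1, which exports sterol to particles that already hold lipid, was 26.4 and 26.5 FPKM, and LPL was 25.1 and 25.2 FPKM, so the levels in synj1+/- were 0.515% and 0.216% higher.

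Below the lesion 2 of the 8 genes were past the fold downward in synj1+/- and 0 upward, where 12.7% of all genes were past it downward and 9.48% upward. The 2 were ABCA1 and LPL. The median log2 ratio of the 8 was -0.24, against 0.01 over all genes. Of the 8 ratios 5 were below 0, as were 47.2% of all genes. At an absolute log2 ratio of 0.2 the members past it downward were 4 of 9 above the lesion (15.6% of all genes) and 5 of 8 below (19.8%), and upward 0 of 9 (11.2%) and 1 of 8, APOE (18.9%). At 0.5 they were 0 of 9 above (2.86% of all genes) and 2 of 8 below (5.73%) downward, with 0 upward at either site (1.3% and 2.04%).

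ABCA1 was 22.2 FPKM in synj1+/+ and 13.1 in synj1+/- below the lesion, a log2 ratio of -0.76, with 2.67% of all genes at or below it. LPL, the lipase that frees fatty acids from lipoprotein triglyceride, was 40.3 and 23.2 FPKM, a log2 ratio of -0.77, with 2.55% of all genes at or below it. These ratios are the widest of the set at either site. CLU and LRP1 lay just inside the threshold at -0.27 each, and APOC1 was at -0.21. ABCG1 and VLDLR were at 0.01 each, a sign that other scalings of the libraries turned. APOE was 95.2 FPKM in synj1+/+ and 113 in synj1+/-, a log2 ratio of 0.24 in the direction opposite to that above the lesion.

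**Figure D2:**
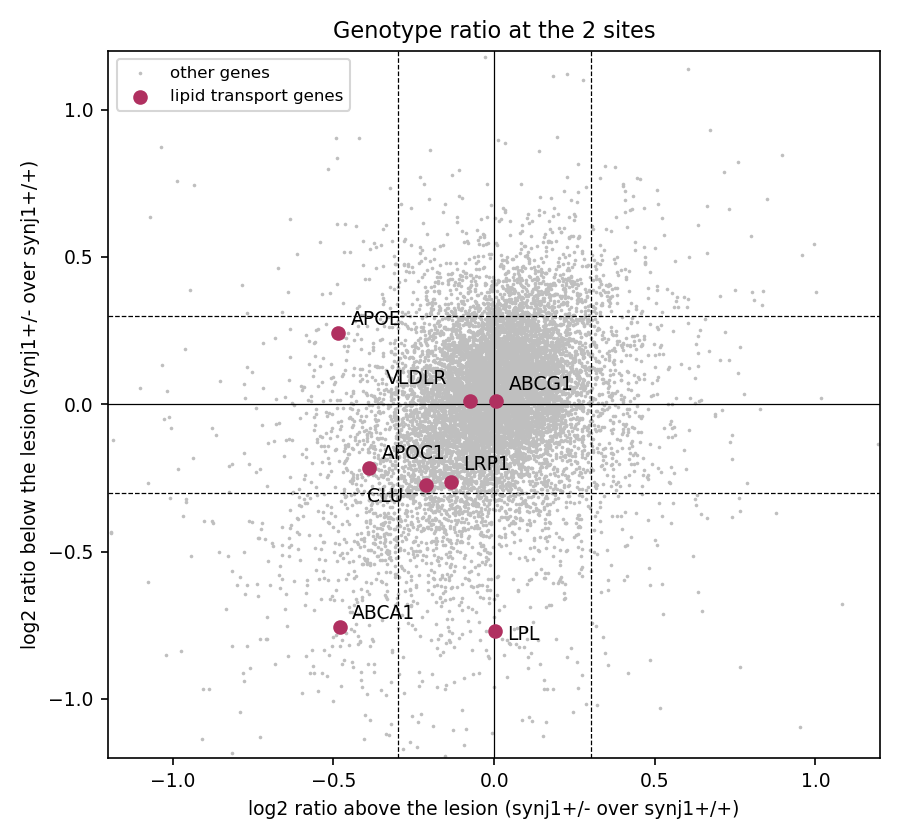
Log2 ratio of synj1+/- over synj1+/+ below the lesion against that above it for the genes listed at both sites, in grey, with the 8 lipid transport genes in red; dashed lines are the fold threshold, and 116 genes past 1.2 on either axis are left off. ABCA1 lies at -0.48 above and -0.76 below, APOE at -0.48 and 0.24, and LPL at 0.00 and -0.77.

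The sites were compared over the 8 genes listed at both, out of 12025 such genes. The sites were downsampled and normalized separately, and the median log2 value of below over above across those genes was -0.0008 in synj1+/+ and 0.02 in synj1+/-, so the middle of the distribution was nearly the same at both sites. The difference of the genotype ratio, below minus above, was 0.73 for APOE, with 1.19% of genes at or above it, and -0.77 for LPL, with 1.76% of genes at or below it. For ABCA1 it was -0.28, for APOC1 0.17 and for LRP1 -0.13. CLU, ABCG1 and VLDLR each differed by less than 0.1. The standard deviation of this difference over all genes was 0.32, and 39.6% of genes had ratios of opposite sign at the sites. No replicate error stands behind these differences, and whether any exceeds the spread between mice was not tested.

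Within synj1+/+ the deposited value of APOE below the lesion was 0.622 times that above, and within synj1+/- 1.03 times. The same quotient for LPL was 1.58 in synj1+/+ and 0.926 in synj1+/-. ABCA1 was higher below in both genotypes, 1.43 times in synj1+/+ and 1.18 times in synj1+/-. LRP1 was likewise 1.27 and 1.16 times and APOC1 1.23 and 1.39 times, while CLU stood at 1.01 and 0.969 times and ABCG1 at 1.00 and 1.01 times.

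The genes whose pattern was most like that of APOE were found by the distance in 3 values, the log2 ratio at each site and the log2 value of below over above in synj1+/+, among 9287 genes with all 4 values at 10 or more. They were OSBPL3 (distance 0.07), TOB2 (0.14), ARMC2 (0.16), SGK1 (0.17) and C2CD2 (0.19). SGK1 stood at 86.4 FPKM in synj1+/+ above, 55.6 in synj1+/- above, 57.1 in synj1+/+ below and 68.1 in synj1+/- below, the same order of groups as APOE apart from the 2 lowest. TOB2 stood at 26.5, 19.8, 17.3 and 21.6 FPKM. Among many genes some lie near any point, and nothing about shared control is read from this list.

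The other genes of the route were taken from 7 lists with 119 genes. Above the lesion 92 were listed, of which 14 were past the fold downward, 3 upward and 75 within it, with a median log2 ratio of -0.05. Below the lesion 79 were listed, of which 16 were downward, 2 upward and 61 within it, with a median of -0.09. Against the 8.53% and 12.7% of all genes past the fold downward, the shares were 15.2% and 20.3%. Upward, 4.87% of all genes were past it above the lesion and 9.48% below. These shares of all genes stand beside each list count that follows. The lists, like the 9 genes, were chosen with earlier results of these data known. A share above that of all genes is therefore a description only.

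Fatty acid carriers and lipid droplet coat proteins stood lowest by their median, -0.17 above (4 of 11 downward, 1 upward) and -0.20 below (4 of 12 downward, 0 upward). PLIN4, a coat protein of lipid droplets, had a log2 ratio of -1.37 at both sites. PLIN2, the droplet coat protein of lipid-laden phagocytes, was at -0.38 above and -0.61 below. CD36, a scavenger receptor and fatty acid carrier, was at 0.46 above and -1.39 below, so its sign differed between the sites as that of APOE did, but the other way round. MFSD2A, the carrier of lysophospholipid with docosahexaenoic acid at the blood-brain barrier, was 13.6 and 8.78 FPKM above the lesion (log2 ratio -0.60). Below the lesion it was 11.9 and 11.5 FPKM (-0.05).

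Among the other apolipoproteins and remodelling proteins 2 of 10 were downward and 1 upward above the lesion, and 3 of 10 downward and 1 upward below it. SAA3, an acute phase apolipoprotein, was 22.7 FPKM in synj1+/+ and 0.596 in synj1+/- above the lesion, a log2 ratio of -4.40. Below the lesion SAA3 was 34.4 and 29.5 FPKM (log2 ratio -0.22), so the low level was confined to synj1+/- above. SCARB1, the HDL receptor, was at 0.30 above the lesion. Below the lesion LCAT, which esterifies cholesterol on ApoE particles, had a log2 ratio of -0.44, PON3, a paraoxonase of HDL, was at -0.64 and APOL8 at 0.51.

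Of the other ABC transporters 3 of 12 were downward above the lesion and 1 of 10 below, with none upward. Those downward are 25% and 10%, against 8.53% and 12.7% of all genes. ABCG2, an exporter of the blood-brain barrier, was at -1.21 above and -0.31 below. ABCB4, a phosphatidylcholine translocase, was at -0.42 above. Of the liver X receptors, their partners and other targets 1 of 11 was downward above the lesion (NR1H3, the receptor LXR alpha, -0.31) and 0 of 9 below, where 1 was upward. The share downward above was 9.09%, near the 8.53% of all genes. The median of that list was -0.03 above and -0.01 below.

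Among the other lipoprotein receptors and their regulators 3 of 18 were downward above the lesion and 2 of 14 below, with none upward. Those downward are 16.7% and 14.3%, against 8.53% and 12.7% of all genes. TREM2, a microglial receptor that binds ApoE and CLU particles, was 157 FPKM in synj1+/+ and 104 in synj1+/- above the lesion (log2 ratio -0.59). STAB1, a scavenger receptor, was at -0.63 above and -1.23 below. MYLIP, the ligase that degrades receptors of the LDL receptor family and is itself a liver X receptor target, was at -0.31 above and -0.46 below.

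Of the genes of intracellular cholesterol handling 1 of 21 was downward above the lesion (CH25H, cholesterol 25-hydroxylase, -0.37) and 4 of 19 below, with none upward. Those downward are 4.76% and 21.1%, against 8.53% and 12.7% of all genes. Below, TSPO, a mitochondrial protein raised in reactive glia, was 40.2 and 26.0 FPKM (log2 ratio -0.61), SOAT1, which esterifies cholesterol for storage, 12.9 and 8.90 FPKM (-0.52), and LIPA, the lysosomal acid lipase, 26.2 and 18.7 FPKM (-0.47). Of the lipase partners and other lipases 0 of 9 were downward and 1 upward above the lesion (PCSK5, a proprotein convertase, 0.39), and 2 of 5 downward below, where LMF1, the factor that matures LPL in the endoplasmic reticulum, was at -0.31.

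**Figure D3:**
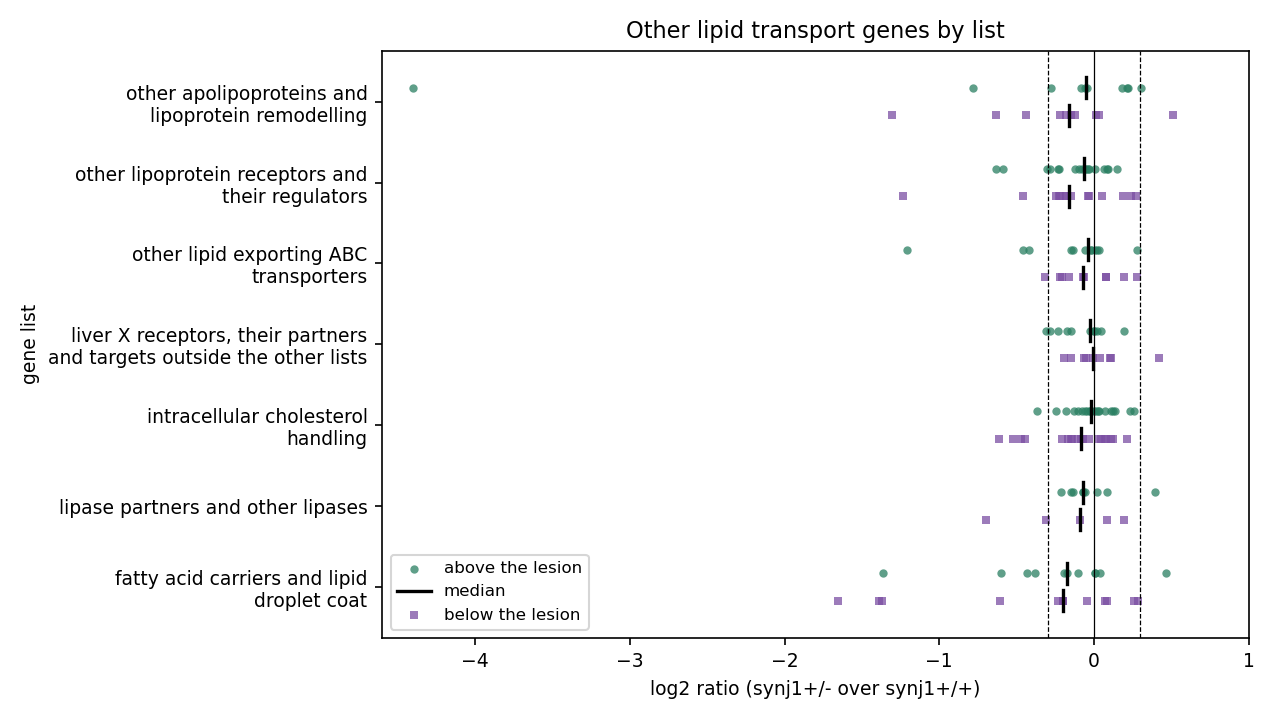
Log2 ratio of synj1+/- over synj1+/+ for each listed gene of the 7 lists, circles above and squares below the lesion, with the median of each list as a black bar and the fold threshold as dashed lines. The medians lie between -0.20 and -0.01, and the farthest point is SAA3 above the lesion at -4.40.

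The marker lists of other cells did not share a direction. Those of macrophages and phagocytes, microglia, fibroblasts and astrocytes had a negative median log2 ratio at both sites, as the lipid transport genes did. Those of neurons and red blood cells had a positive median at both sites. The remaining lists changed sign between the sites, apart from adipocytes, which had a marker listed below the lesion only. In bulk tissue fewer cells of a type and less RNA per cell cannot be told apart. Over all genes 8.53% were past the fold downward above the lesion and 12.7% below, and 4.87% and 9.48% upward. These shares stand beside each marker count that follows. Markers of macrophages and phagocytes, cells that express APOE, ABCA1 and LPL after injury, were past the fold downward for 4 of 7 listed genes above the lesion and 7 of 8 below. Their summed level over the genes whose FPKM could be recovered was 343 FPKM in synj1+/+ and 287 in synj1+/- above the lesion, and 594 and 351 below. SPP1, osteopontin, was 373 and 222 FPKM below the lesion, GPNMB 109 and 69.8, and LGALS3, galectin 3, 93.1 and 48.6. Markers of microglia summed to 365 and 289 FPKM above and to 345 and 247 below, with 3 of 10 and 4 of 6 past the fold downward (P2RY12, which defines homeostatic microglia, was analysed above the lesion only, at 24.4 and 23.2 FPKM). Their part in the ratios of APOE, ABCA1 and LPL was not tested.

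Markers of fibroblasts were downward for 5 of 8 genes above the lesion and 10 of 10 below. Above, they summed to 28.6 FPKM in synj1+/+ and 19.0 in synj1+/- over 7 genes. Below, they summed to 421 FPKM in synj1+/+ and 49.8 in synj1+/- over 9 genes, so synj1+/+ below stood apart from the other groups. Above the lesion LUM, at 1.67 and 0.863 FPKM, and COL1A1, at 3.20 and 1.88, lay near the floor. FABP4, the only adipocyte marker listed below the lesion, was 2.86 and 0.568 FPKM, and none of the 6 was listed above. The part of these cells in the LPL ratio below the lesion was not tested. Markers of Schwann cells, the myelinating cells of peripheral nerve, were downward for 4 of 4 listed genes below the lesion, with a median log2 ratio of -0.64 and a sum of 22.4 FPKM in synj1+/+ and 13.1 in synj1+/- over 2 of them. Above the lesion 2 were listed, with 1 upward and a median of 0.47. The part of these cells in the ABCA1 and LPL ratios was likewise not tested. Markers of astrocytes, the main source of APOE and CLU, summed to 5756 and 5064 FPKM above the lesion and to 5441 and 4519 below. Past the fold downward were 0 of 10 above and 2 of 10 below, with 0 upward at either site. GFAP, the largest part of those sums, was 3243 and 2646 FPKM above and 2779 and 2121 below. The sums therefore follow GFAP more than the other markers. Ratios were below 0 for 8 of 10 markers above and 9 of 10 below. The others were S100B (log2 ratio 0.06) and SOX9 (0.18) above and SLC1A3 (0.10) below. Below the lesion APOE had a log2 ratio of 0.24, the astrocyte list a median of -0.17 and the microglial list a median of -0.36. The part of astrocytes and microglia in the APOE ratio was not tested.

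Neuronal markers had a median log2 ratio of 0.09 above and 0.22 below the lesion, with 0 of 10 and 3 of 8 upward. Genes of red blood cells were upward for all 5 above the lesion, with a sum of 144 FPKM in synj1+/+ and 658 in synj1+/- over 4 of them, and for 3 of 5 below. Their part in the results was not tested. The oligodendrocyte list had 6 of 10 genes listed at each site, with a median log2 ratio of -0.03 above and 0.06 below. The endothelial list had a median of 0.14 above (2 of 8 upward) and -0.14 below (1 of 8 downward), the list of pericytes and vascular smooth muscle 0.22 above (1 of 6 upward) and -0.07 below (2 of 6 downward), and the ependymal list -0.06 above (1 of 4 upward) and 0.49 below (2 of 3 upward). No marker of any list with recovered FPKM was at 0 in a group.

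**Figure D4:**
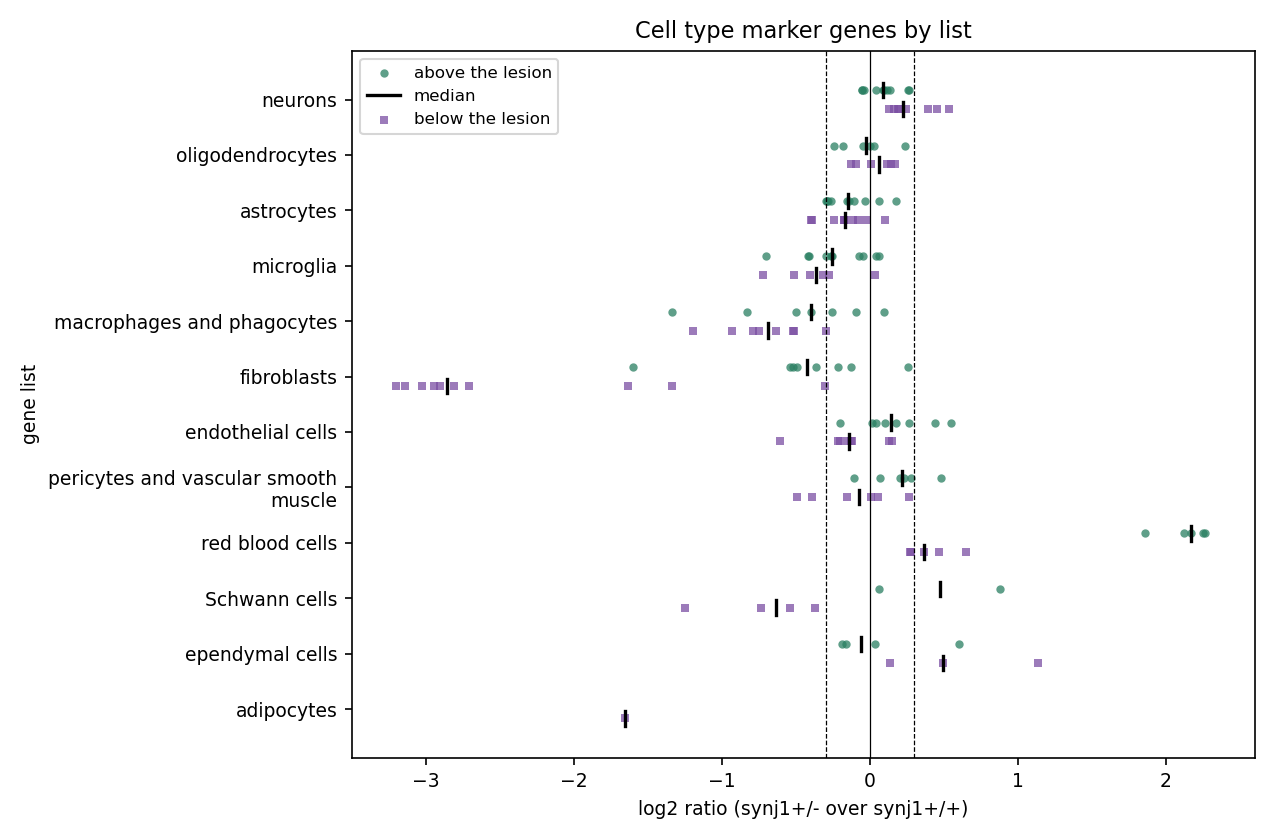
Log2 ratio of synj1+/- over synj1+/+ for each listed marker gene of 12 cell types, circles above and squares below the lesion, with list medians as black bars and the fold threshold as dashed lines. The fibroblast list lies lowest, with a median of -2.86 below the lesion, and the red blood cell list highest, with a median of 2.17 above it.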

How the data were processed

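RNA-seq was done by the authors on 12 libraries in 4 groups of 3. Per the labels and the study's methods, reads were reduced at random to the smallest library of each site, aligned with STAR 2.5.4b to GRCm38.p6 and summarised with Cuffdiff 1.3.0 under upper quartile normalization; the annotation is not given in the sources used here. The authors' deposited values, 1 per gene and group, fit 1 plus FPKM times the number of transcripts, which is inferred here from their digits. Such an FPKM would have at most 6 significant digits. With RefSeq transcript numbers, 89.4% of 51548 values and all 34 of the members met this. With 1 transcript more, 37.9% of all values and 21 of the 34 of the members met it, so the fit separates less well for the members. For the members, pathway genes and markers, FPKM is printed only where every value met it with the RefSeq number. SYNJ1 is given as deposited. The median over all genes, the ranks among all genes and the FPKM of genes nearest to APOE were taken without this check. This replaces the level first planned (value less 1) and was chosen after seeing the data.

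Further columns hold the authors' p-values, q-values and fold changes, as does a shorter list at a stricter p; none was used. Depth per library, standard errors and replicate tests could not be had from pooled values, so no p is given. Of rows that share a symbol at a site, the one with the higher mean was kept (3 rows dropped). Named genes were the 9 members, SYNJ1, the 5 genes nearest to APOE, up to 3 genes per pathway list and site past the fold with a value of at least 10, and markers where their level was needed. The members and lists were chosen with earlier results of these data known. Functions were tested on simulated data. Python 3.11.15, numpy 2.4.6 and pandas 2.3.3 were used.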

Additional observations from a re-analysis of the deposited data

How the results depend on the processing

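No paired analysis was possible because the values are pooled per group with no column for a single library; for the same reason no replicate could be left out. A log2 ratio was called moved when it shifted by 0.1 or more and a count when it changed by over 1.5 times. Of 134 recomputed ratios of the 9 genes under other offsets, scalings, a filter, summed rows or an offset on the FPKM (the last chosen after seeing the data), 131 shifted by less. None of those past the fold turned direction, while ABCG1 and VLDLR below the lesion, near 0, turned slightly negative under the 3 other scalings (6 values), so that 7 of 8 ratios were below 0 there. The exceptions, all with a pseudocount of 10, were APOC1 above (-0.14) and below (-0.09) the lesion and LPL below (-0.60). CLU below the lesion passed the fold when scaled to the total (-0.30), and APOC1 above it dropped out with a mean of at least 10. Counts moved mainly with the threshold. At 0.5 the members downward above the lesion were 0; at 0.2 those below were 5 downward and 1 upward (APOE). Pathway genes downward were 22 at 0.2 and 7 at 0.5 above the lesion, and 25 and 10 below; upward they were 8 and 0 above, 8 and 1 below, and 1 below with a mean of at least 10.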

Other observations

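The deposited values cannot be compared between genes as they stand. The median value in synj1+/+ rose from 11.3 for genes with 1 RefSeq transcript to 31.3 for 2 to 5, 92.4 for 6 to 20 and 463 for over 20. Among the 8 genes above the lesion other than APOE, VLDLR, with 13 transcripts, ranked 3rd by deposited value and 7th by FPKM, and 5 of the 8 changed rank in either genotype. Below the lesion 4 of 7 did. Ratios between groups hold the same number of transcripts on both sides and were little touched: with the offset on the FPKM, all member ratios shifted by less than 0.1.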
